A study of Arabidopsis thaliana with 12 samples.

Results

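The nuclear genes of the light-harvesting antenna and of the photosystems were followed by RNA sequencing in Arabidopsis thaliana seedlings. Members were chosen by locus from a list of 48 genes. The list held LHCA1 to LHCA6, the LHCB1 to LHCB6 genes, the nuclear-encoded subunits of photosystem I and photosystem II, the Rieske protein gene PETC, the plastocyanin genes PETE1 and PETE2, and the ATP synthase genes ATPC1 and ATPD. Of these, 46 were among the 14897 genes of the deposited table, namely 5 of 6 photosystem I antenna genes, 13 of 14 photosystem II antenna genes, 12 of 12 photosystem I subunit genes, 11 of 11 photosystem II subunit genes and 5 of 5 electron carrier and ATP synthase genes. LHCA6 and LHCB1.4 were not analysed here. The seedlings were 14 days old, were grown in liquid culture under continuous light, and were kept for 48 h with L-glutamate (L-Glu) or with urea, each at 20 mM. Of the 4 groups, of 3 libraries each, sid2 and Col-0 seedlings with L-Glu are set against sid2 and Col-0 seedlings with urea. Col-0 is the wild type, and sid2 lacks a working SID2 gene (also ICS1), whose product, isochorismate synthase, acts in the synthesis of salicylic acid. The samples include no untreated group, so each effect of L-Glu is relative to urea. Genotypes were taken from the titles, which name sid2 or Col-0, although a genotype label of Col-0 stands with all 12 libraries. The labels name seedlings and no organ, so the values are averages over the tissues of a seedling.

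In the thylakoid membrane, chlorophyll-binding LHC proteins collect light and pass the energy to photosystem II and photosystem I. Photosystem II splits water, and electrons pass through the cytochrome b6f complex, which holds the Rieske protein, and plastocyanin to photosystem I, while the proton gradient drives ATP synthase. The reaction-centre cores are encoded in the chloroplast genome, whereas the whole LHC family and many peripheral subunits are encoded in the nucleus. Their nuclear promoters are known for light-responsive elements, among them the G-box, the I-box and GT-1 sites.

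The sequences before the annotated gene starts are shown for 5 members on which the results turn. LHCB2.1 fell least in sid2 and PSAH1 in Col-0. PSAH1 and PSAH2 are the pair whose ratio moved most, and LHCB1.1, shown with its neighbour LHCB1.3, was the 1 of 46 members called in the comparison of the responses of the genotypes. That share is near the 1.95% of all genes, and the call was lost without 8 of the 12 libraries. They were read from the RefSeq TAIR10.1 genome, on the coding strand of the gene, as up to 250 bases that end at its annotated start. The windows lie at chr2:1824481-1824730 (minus strand), chr3:5469595-5469844 (minus strand), chr1:19454766-19454797 (plus strand), chr1:10475970-10476219 (minus strand) and chr1:10477635-10477884 (plus strand). For PSAH2, the 32 bases that overlap no other annotated gene are printed. Capitals mark motifs found on either strand. The G-box was searched as CACGTG, a palindrome that was counted once. For the core of the I-box the letters were GATAAG, and for the core of GT-1 sites they were GGTTAA. The core of the TATA box was taken as TATAAA. It was sought on either strand and at any place in the window, so a hit is a match of letters only.
LHCB2.1: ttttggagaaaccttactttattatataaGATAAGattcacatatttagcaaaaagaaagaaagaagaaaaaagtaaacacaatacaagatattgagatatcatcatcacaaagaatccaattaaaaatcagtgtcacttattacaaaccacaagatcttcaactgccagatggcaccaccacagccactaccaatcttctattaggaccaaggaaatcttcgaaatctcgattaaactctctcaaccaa
PSAH1: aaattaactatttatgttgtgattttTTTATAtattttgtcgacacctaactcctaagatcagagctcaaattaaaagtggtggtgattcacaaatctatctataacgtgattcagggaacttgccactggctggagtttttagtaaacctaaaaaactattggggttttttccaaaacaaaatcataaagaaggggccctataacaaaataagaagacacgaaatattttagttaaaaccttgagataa
PSAH2: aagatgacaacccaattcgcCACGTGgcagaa
LHCB1.1: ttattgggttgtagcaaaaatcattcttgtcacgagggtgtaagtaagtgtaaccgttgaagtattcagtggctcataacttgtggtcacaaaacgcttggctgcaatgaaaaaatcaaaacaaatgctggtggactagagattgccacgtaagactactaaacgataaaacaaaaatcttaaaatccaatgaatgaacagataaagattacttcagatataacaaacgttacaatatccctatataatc
LHCB1.3: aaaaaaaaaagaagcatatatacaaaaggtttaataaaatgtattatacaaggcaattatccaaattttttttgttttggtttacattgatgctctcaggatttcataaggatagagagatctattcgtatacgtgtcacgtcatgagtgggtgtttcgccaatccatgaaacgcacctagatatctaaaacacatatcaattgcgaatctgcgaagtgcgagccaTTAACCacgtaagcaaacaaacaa

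A G-box stood in the 250-base windows of 10 of 46 members (21.7%) and of 1118 of 14818 genes of the table with a window (7.54%). An I-box core stood in 11 members (23.9%), against 12.6% of the table. The GT-1 core was found in 7 members (15.2%), against 15.4% of the table, and the TATA box core in 21 members (45.7%), against 46.0% of the table. Windows were counted whole, including bases that overlap another annotated gene, as in PSAH2, PSAD2, PSAE1, PSBP1, ATPD and others. The counts therefore do not separate promoter bases from those of neighbouring genes. The whole PSAH2 window held 2 G-boxes, while the LHCB1.1 window held none of the 4 motifs. The median log2 fold change of L-Glu over urea was -4.42 in sid2 and -4.26 in Col-0 for the members with a G-box. For the 36 members without a G-box it was -4.62 in sid2 and -4.58 in Col-0. Members with an I-box core had -4.54 in sid2 and -4.55 in Col-0, and those without it -4.66 and -4.32. For the GT-1 core the medians were -4.39 in sid2 and -4.31 in Col-0 with it, and -4.67 and -4.55 without it. For the TATA box core they were -4.68 in sid2 and -4.65 in Col-0 with it, and -4.44 and -4.27 without it. The direction thus varied between motifs, and these differences were not tested.

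The deposited values are a normalized read abundance per gene, called units here. They sum to between 2564533 and 4419987 units per library, with medians of 74.1 to 77.2 units. Read numbers per library are unknown, so no counting interval is given. SID2, the gene named by the mutant, had signals of 7434, 5421 and 7339.6 in sid2 with L-Glu and 9616, 7461 and 10896 in Col-0 with L-Glu, against 43.3, 29.8 and 65.4 in sid2 with urea and 98.3, 100.1 and 89.7 in Col-0 with urea. It was thus higher with L-Glu in both genotypes, and since the sid2 libraries held the transcript, its level does not check the genotype labels. Among the members, urea library 1 of Col-0 differed most from its group by transcript length. Relative to the other libraries of its group, its 23 members shorter than the median exon length of 1202 bases had a median log2 difference of -0.31, and its 23 longer members one of 0.28. Over all 14819 genes with a length, Spearman's rho of length and this difference was 0.354 in that library. It was -0.322 in Col-0 urea library 2, whose difference is taken partly against library 1, and -0.341 in sid2 urea library 2. Given the value in sid2 urea library 2, Col-0 urea library 1 was not alone in the table as a whole. Col-0 L-Glu library 2 was the lowest of its group for 36 of 46 members, against 37.6% of all genes. In sid2 with urea, library 2 was the highest for 39 of 46 members, against 33.8% of all genes, and library 1 was the lowest for 40 of 46, against 32.4%.

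**Figure D1:**
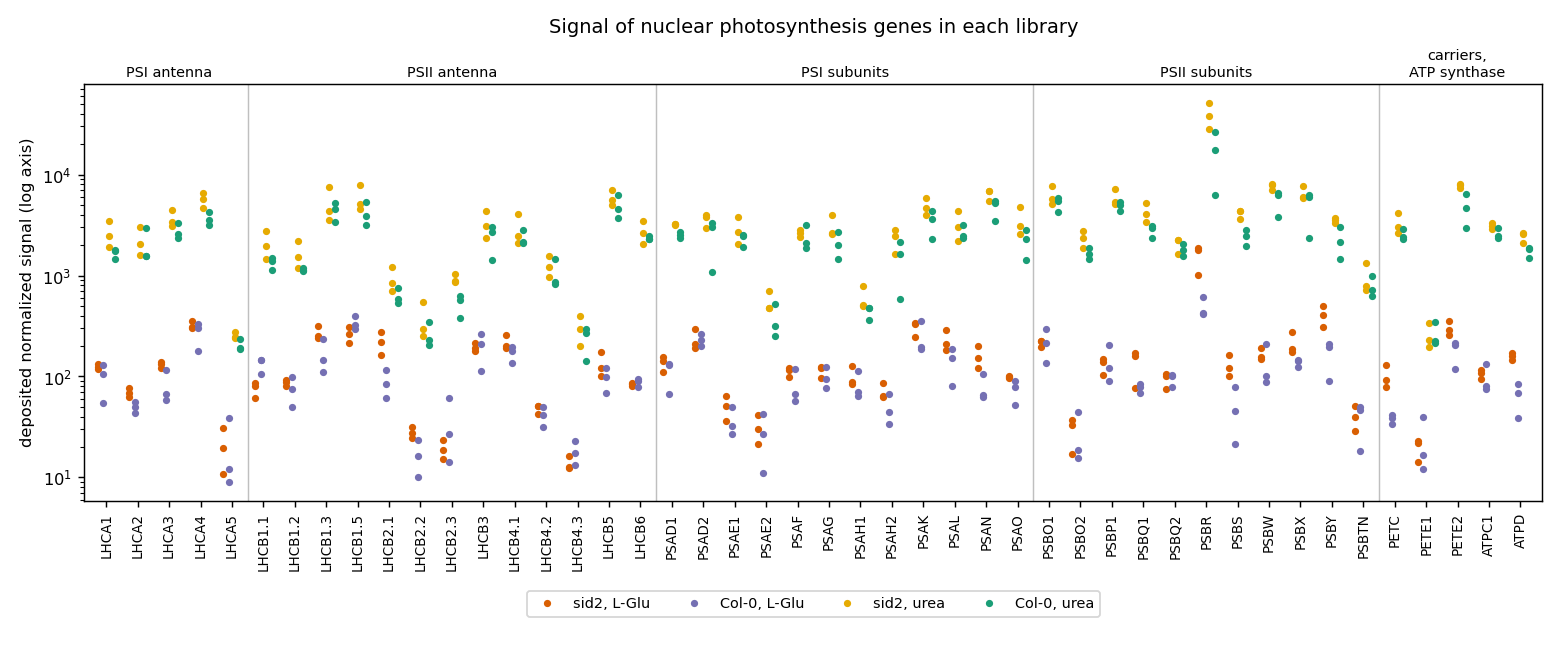
Deposited normalized signal (vertical log axis) of the 46 measured members in each library, by class along the horizontal axis. Points are libraries, 3 per group, in the order sid2 L-Glu, Col-0 L-Glu, sid2 urea and Col-0 urea, and for each of the 46 genes the 6 L-Glu points lie below the 6 urea points.

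All 46 measured members were lower with L-Glu than with urea in both genotypes. The median log2 fold change of the members was -4.56 in sid2 and -4.54 in Col-0, whereas the median over all genes was -0.02 in sid2 and -0.05 in Col-0. In sid2 46 of 46 members passed the test as lower, where 32.4% of all genes did so, and in Col-0 again 46 of 46, where 30.3% of all genes did so (limma, Benjamini-Hochberg adjusted p under 0.05 over 14897 genes). For 46 of 46 members every L-Glu library of both genotypes lay below every urea library. The narrowest gap was that of LHCB2.1, whose lowest urea library held 1.95 times the signal of its highest L-Glu library, and the widest was that of PSBO2, at 32.9 times. The share of all genes separated in this way over both genotypes was not computed. By the looser measure within a genotype, all L-Glu libraries lay below all urea libraries for 46 of 46 members in sid2 and in Col-0. That was so for 36.4% of all genes in sid2 and 31.1% in Col-0. In these bulk libraries, fewer cells of a type and less RNA per cell cannot be told apart.

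The members made up a large part of the strongest falls in the table. A called log2 fold change of -4 or lower, a fall of at least 16-fold, was found for 170 genes in sid2 (1.14% of the table). Of these, 35 were members, which is 76.1% of the members and 20.6% of those genes. In Col-0, 124 genes passed the same limit (0.832% of the table). Of these, 29 were members, 63.0% of the members and 23.4% of those genes.

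Together the members held 0.154%, 0.203% and 0.202% of the deposited signal in sid2 with L-Glu and 0.123%, 0.1004% and 0.143% in Col-0 with L-Glu. They held 5.39%, 7.35% and 6.25% in sid2 with urea and 4.21%, 4.63% and 5.07% in Col-0 with urea. The mean was 0.186% ± 0.0277 in sid2 with L-Glu and 0.122% ± 0.0214 in Col-0 with L-Glu, against 6.33% ± 0.983 in sid2 with urea and 4.63% ± 0.430 in Col-0 with urea (SD, n = 3 each). No L-Glu library came near any urea library. Divided by the exon length of the longest RefSeq transcript, the median member stood at the 74.5th percentile of 14819 genes in sid2 with L-Glu and at the 68.5th in Col-0 with L-Glu, against the 99.6th in sid2 with urea and the 99.5th in Col-0 with urea. Above the 90th percentile were 4 members in sid2 with L-Glu and 3 in Col-0 with L-Glu, against 46 in sid2 with urea and 45 in Col-0 with urea. The median level of the members was 99.2 units per kb in sid2 with L-Glu and 74.5 units per kb in Col-0 with L-Glu, against 2706 units per kb in sid2 with urea and 1960 units per kb in Col-0 with urea. For all genes the median level was between 40.6 and 42.3 units per kb in the 4 groups. The median member was thus above that value under L-Glu too, whereas the lowest member, LHCB4.3, stood at the 11.1th percentile in sid2 with L-Glu and at the 14.1th in Col-0 with L-Glu.

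**Figure D2:**
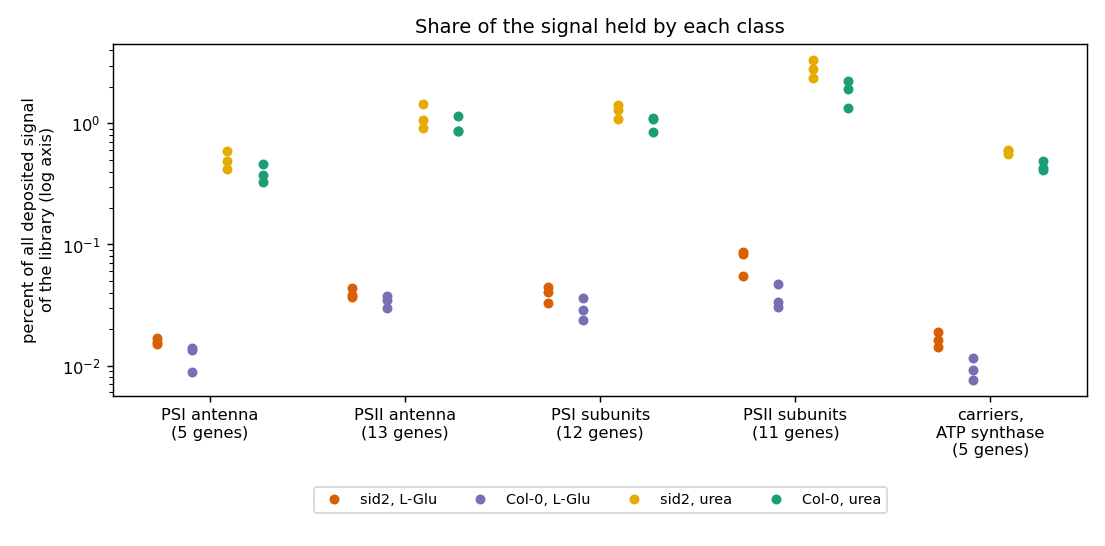
Percent of all deposited signal of a library (vertical log axis) held by each of the 5 classes (horizontal axis, with the number of measured genes). Points are libraries, 3 per group, and in each class the 6 L-Glu libraries lie below the 6 urea libraries.

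The antenna of photosystem I is a belt of LHCA proteins. The median log2 fold change of L-Glu over urea for its 5 measured genes was -4.32 in sid2 and -4.13 in Col-0. LHCA4, whose protein pairs with LHCA1 in the belt, had signals of 309, 304 and 351 in sid2 with L-Glu and 328, 179.9 and 303 in Col-0 with L-Glu, against 4709, 6624 and 5679.7 in sid2 with urea and 3555, 3162 and 4229 in Col-0 with urea. LHCA3 had signals of 121, 133 and 139 in sid2 with L-Glu and 116, 57.9 and 67.2 in Col-0 with L-Glu, against 3096, 4458 and 3357 in sid2 with urea and 3334, 2603 and 2339.9 in Col-0 with urea. Under L-Glu the genotypes overlapped in LHCA4, while in LHCA3 all sid2 libraries were above all Col-0 libraries, and both genes were far lower than with urea. The log2 fold change of LHCA4 was -4.12 (SE 0.227, adjusted p = 9.05e-12) in sid2 and -3.77 (SE 0.227, adjusted p = 3.18e-11) in Col-0. LHCA3 fell, with log2 fold changes of -4.74 in sid2 and -5.09 in Col-0, LHCA2 with -4.91 in sid2 and -5.18 in Col-0, and LHCA1 with -4.32 in sid2 and -4.13 in Col-0. LHCA5, which encodes a low-abundance antenna protein, had the smallest fall of the class at -3.52 in sid2 and -3.35 in Col-0. Per length it was also the least abundant of the class, at 20.8 units per kb in sid2 with L-Glu and 20.5 in Col-0 with L-Glu, against 259 in sid2 with urea and 209 in Col-0 with urea.

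The antenna of photosystem II consists of the major LHCII trimers, made of LHCB1, LHCB2 and LHCB3, and of the minor monomeric proteins LHCB4 (CP29), LHCB5 (CP26) and LHCB6 (CP24). The median log2 fold change of the 13 measured genes was -4.19 in sid2 and -3.78 in Col-0. LHCB5, a gene for a minor antenna protein, had signals of 101, 120.2 and 175 in sid2 with L-Glu and 98.8, 68.2 and 122 in Col-0 with L-Glu, against 4970.4, 6995 and 5609.9 in sid2 with urea and 6302, 3719.8 and 4539.9 in Col-0 with urea. Its L-Glu libraries of the 2 genotypes overlapped, and all lay far below the urea libraries. The log2 fold change of LHCB5 was -5.46 (SE 0.252, adjusted p = 6.91e-13) in sid2 and -5.61 (SE 0.252, adjusted p = 4.37e-13) in Col-0, the largest fall of the class in both genotypes. LHCB6, also of the minor antenna, fell with log2 fold changes of -4.93 in sid2 and -4.70 in Col-0.

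LHCB1.5, one of the LHCB1 genes of the major trimers, had signals of 307, 265 and 217 in sid2 with L-Glu and 393, 297 and 325 in Col-0 with L-Glu, against 4617, 7806 and 5105 in sid2 with urea and 5339, 3851 and 3153 in Col-0 with urea. Its L-Glu libraries overlapped between the genotypes, and it fell, with log2 fold changes of -4.43 in sid2 and -3.57 in Col-0. LHCB2.1 had signals of 217, 273 and 164 in sid2 with L-Glu and 115, 60.7 and 83.2 in Col-0 with L-Glu, against 696, 1216 and 844 in sid2 with urea and 756, 532 and 580.1 in Col-0 with urea. All sid2 L-Glu libraries of LHCB2.1 were above all Col-0 L-Glu libraries, and both groups were below the urea libraries. Its log2 fold change of -2.05 (SE 0.252, adjusted p = 8.52e-07) was the smallest fall of any member in sid2, and in Col-0 the value was -2.83 (SE 0.252, adjusted p = 1.06e-08). Its family members LHCB2.2 and LHCB2.3 fell too, LHCB2.2 with log2 fold changes of -3.48 in sid2 and -3.74 in Col-0 and LHCB2.3 with -5.37 in sid2 and -3.98 in Col-0. The falls of LHCB1.2 were -4.14 in sid2 and -3.93 in Col-0, and those of LHCB1.3 were -4.19 in sid2 and -4.76 in Col-0. For LHCB3, the third gene type of the trimers, they were -4.02 in sid2 and -3.58 in Col-0, and for LHCB4.3, the least abundant member per length in all 4 groups, they were -4.08 in sid2 and -3.44 in Col-0. The coding sequences of LHCB1.1, LHCB1.2 and LHCB1.3 are 95.6% to 96.4% identical. Those of LHCB1.5 and LHCB1.4, which was not analysed here, are 92.5% identical, and those of LHCB2.1 and LHCB2.2 are 91.6% identical. Reads may thus have been divided between these genes, and their single values are uncertain. Without the LHCB1 and LHCB2 genes, the median of the remaining 39 members was -4.66 in sid2 and -4.65 in Col-0.

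Of the photosystem I subunits, PSAD and PSAE form the stromal docking side for ferredoxin, PSAF and PSAN lie towards plastocyanin, PSAG and PSAK are at the edge that meets the antenna, and PSAH, PSAL and PSAO are at the side where LHCII docks in state transitions. The median log2 fold change of the 12 genes was -4.53 in sid2 and -4.43 in Col-0. PSAN, a lumenal subunit, had signals of 153, 122 and 201 in sid2 with L-Glu and 65.7, 62.6 and 106 in Col-0 with L-Glu, against 5526, 6918 and 6900.5 in sid2 with urea and 3476, 5282 and 5487 in Col-0 with urea. The lowest sid2 L-Glu library of PSAN was above the highest Col-0 L-Glu library, and both groups were far below the urea libraries. PSAN fell, with log2 fold changes of -5.34 in sid2 and -5.88 in Col-0, and with PSAE1 it had the largest falls of the photosystem I genes. PSAK had signals of 249, 333 and 342 in sid2 with L-Glu and 194, 186 and 352 in Col-0 with L-Glu, against 3960.3, 5830.5 and 4665 in sid2 with urea and 2290.4, 4395 and 3636 in Col-0 with urea. Its L-Glu groups overlapped each other, and it fell, with log2 fold changes of -3.95 in sid2 and -3.81 in Col-0. PSAF fell, with log2 fold changes of -4.52 in sid2 and -4.84 in Col-0, PSAG with -4.67 in sid2 and -4.32 in Col-0, PSAL with -3.76 in sid2 and -4.27 in Col-0, and PSAO with -5.04 in sid2 and -4.81 in Col-0.

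Of the photosystem II subunits, PSBO, PSBP and PSBQ are the extrinsic proteins that stabilise the oxygen-evolving complex, PSBR helps to hold them, PSBS is the sensor of energy-dependent quenching of excess light, and PSBW, PSBX, PSBY and PSBTN are small subunits. The median log2 fold change of the 11 genes was -4.94 in sid2 and -4.98 in Col-0. PSBR (AT1G79040) had the highest level of any member per length in all 4 groups. It had signals of 1022, 1896 and 1775 in sid2 with L-Glu and 426, 416 and 612 in Col-0 with L-Glu, against 28313, 51685 and 37865 in sid2 with urea and 6344, 17575 and 26617 in Col-0 with urea. The 3 sid2 L-Glu libraries were above the 3 Col-0 L-Glu libraries, the 3 sid2 urea libraries were above the 3 Col-0 urea libraries, and urea library 1 of Col-0 was far below the others of its group. The log2 fold change of PSBR was -4.66 (SE 0.409, adjusted p = 8.47e-09) in sid2 and -4.90 (SE 0.409, adjusted p = 4.21e-09) in Col-0, and -5.49 in Col-0 without that library. PSBW had signals of 148, 154 and 192 in sid2 with L-Glu and 102, 88.9 and 210.1 in Col-0 with L-Glu, against 7006, 7879 and 8033 in sid2 with urea and 3827, 6297 and 6592 in Col-0 with urea. Its L-Glu groups overlapped, and its falls of -5.51 in sid2 and -5.41 in Col-0 were among the larger ones. PSBP1 fell, with log2 fold changes of -5.45 in sid2 and -5.19 in Col-0, PSBX with -4.94 in sid2 and -4.98 in Col-0, PSBTN with -4.44 in sid2 and -4.31 in Col-0, and PSBY with -3.14 in sid2 and -3.74 in Col-0.

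The carriers and ATP synthase genes fell as well, with a median log2 fold change of -4.68 in sid2 and -4.74 in Col-0 over 5 genes. PETC (AT4G03280), which encodes the Rieske iron-sulfur protein of the cytochrome b6f complex, had signals of 79.5, 93.0 and 129.8 in sid2 with L-Glu and 33.5, 41.9 and 38.8 in Col-0 with L-Glu, against 2651, 4182 and 3037 in sid2 with urea and 2906, 2391 and 2296 in Col-0 with urea. The sid2 L-Glu libraries of PETC were all above the Col-0 L-Glu libraries. The log2 fold change of PETC was -4.98 (SE 0.21, adjusted p = 1.95e-13) in sid2 and -5.93 (SE 0.21, adjusted p = 2.01e-14) in Col-0, where it was the largest fall of any member. ATPD, the delta subunit of the chloroplast ATP synthase, had signals of 171, 160.4 and 146 in sid2 with L-Glu and 68.9, 39.1 and 84.2 in Col-0 with L-Glu, against 2662, 2078 and 2572 in sid2 with urea and 1493, 1815 and 1885 in Col-0 with urea. All 3 sid2 L-Glu libraries of ATPD were above the Col-0 L-Glu libraries, and it fell, with log2 fold changes of -3.90 in sid2 and -4.74 in Col-0. ATPC1, the gamma subunit, fell, with log2 fold changes of -4.83 in sid2 and -4.74 in Col-0, with overlapping L-Glu groups.

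**Figure D3:**
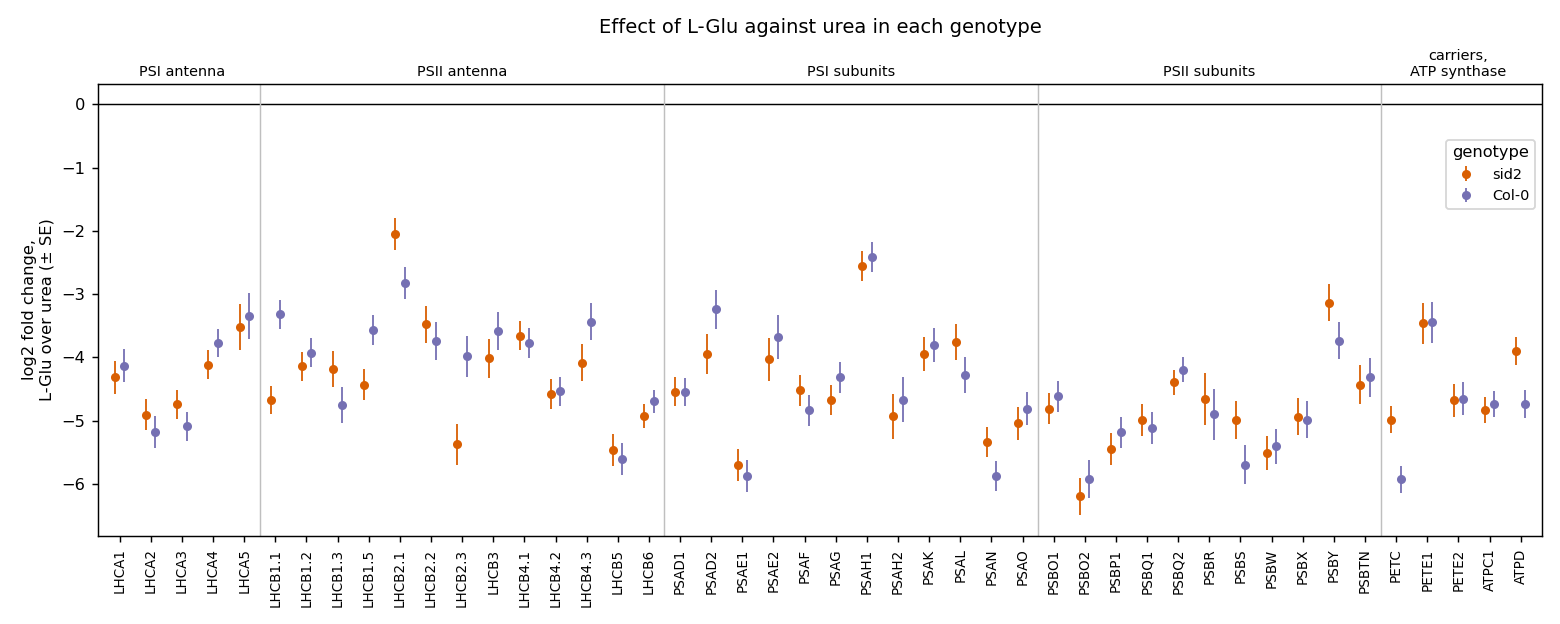
Log2 fold change of L-Glu over urea (vertical axis, ± SE of the fit) for the 46 measured members along the horizontal axis by class, sid2 left of Col-0 for each gene. All values lie below 0, between -6.20 and -2.05 in sid2 and between -5.93 and -2.41 in Col-0.

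Across classes, the antenna genes of both photosystems had a median of -4.25 in sid2 and -3.85 in Col-0 over 18 genes. The subunit genes of both photosystems had a median of -4.67 in sid2 and -4.67 in Col-0 over 23 genes. The classes overlapped widely, since the antenna genes ran between -5.46 and -2.05 in sid2 and between -5.61 and -2.83 in Col-0, and the subunit genes between -6.20 and -2.55 in sid2 and between -5.92 and -2.41 in Col-0. Of the members' own signal, photosystem II subunits held 39.9% ± 3.63 in sid2 with L-Glu and 29.98% ± 2.85 in Col-0 with L-Glu, against 44.9% ± 0.548 in sid2 with urea and 39.1% ± 6.61 in Col-0 with urea (SD, n = 3 each). Photosystem II antenna genes held 21.4% ± 2.53 in sid2 with L-Glu and 28.4% ± 3.42 in Col-0 with L-Glu, against 17.9% ± 1.57 in sid2 with urea and 21.1% ± 5.64 in Col-0 with urea. The treatments overlapped in both shares in Col-0, with urea library 1 at 31.7% for the subunits and 27.6% for the antenna. In sid2 they overlapped in the antenna share but not in that of the subunits. PSBR alone made up a large part of the signal of the photosystem II subunits, and a larger part in sid2 than in Col-0. With L-Glu, PSBR averaged 1564 of the 3119 units of its class in sid2 and 485 of 1561 in Col-0. With urea it averaged 39288 of 82744 units in sid2 and 16846 of 49057 in Col-0, where its libraries ran from 6344 to 26617. Across the 46 members, the level per kb with urea and the log2 fold change had a Pearson r of -0.46 in sid2 and -0.55 in Col-0, and a Spearman rho of -0.44 in sid2 and -0.52 in Col-0. These values describe genes that share the same libraries, and the level enters both measures.

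Several subunits are encoded by 2 similar genes, and in 7 such pairs the ratio of the 2 genes was compared between treatments. In each pair the ratio moved, which means that the 2 copies fell to unequal extents. Pairs of less similar members were not compared, so unequal falls are not shown to be particular to similar genes. The test was an exact two-sided permutation of the treatment labels within genotypes (400 permutations, smallest possible p = 0.005), adjusted over the 7 pairs. The value given for each pair is the log2 ratio with L-Glu minus that with urea, averaged over both genotypes. Coding sequences are 74.6% (PETE1 and PETE2) to 88.0% (PSAD1 and PSAD2) identical within the pairs, so some reads may be divided between copies, and a ratio is not corrected for length.

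The largest shift was that of PSAH1 over PSAH2. PSAH1 had signals of 87.8, 126 and 83.7 in sid2 with L-Glu and 63.5, 70.1 and 113 in Col-0 with L-Glu, against 504, 787 and 515 in sid2 with urea and 366, 481 and 480.3 in Col-0 with urea. PSAH2 had signals of 63.9, 63.2 and 85.5 in sid2 with L-Glu and 44.3, 33.5 and 67.4 in Col-0 with L-Glu, against 1629.5, 2465 and 2811 in sid2 with urea and 584, 1617 and 2165 in Col-0 with urea. With urea, PSAH2 was thus the higher of the copies in every library, and with L-Glu PSAH1 was the higher in all libraries but sid2 L-Glu library 3, where the copies were almost equal. The log2 ratios were 0.44, 0.96 and -0.03 in sid2 with L-Glu and 0.49, 0.99 and 0.71 in Col-0 with L-Glu, against -1.69, -1.64 and -2.44 in sid2 with urea and -0.67, -1.74 and -2.16 in Col-0 with urea. The shift was 2.32 (p = 0.005 by the exact test, adjusted p = 0.00583), at 2.38 in sid2 and 2.26 in Col-0. PSAH1 fell, with log2 fold changes of -2.55 in sid2 and -2.41 in Col-0, the smallest fall of any member in Col-0, while PSAH2 fell, with log2 fold changes of -4.93 in sid2 and -4.67 in Col-0.

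Of the PSAE genes, the first copy fell more than the second. PSAE1 had signals of 51.0, 36.1 and 64.2 in sid2 with L-Glu and 32.5, 26.9 and 50.3 in Col-0 with L-Glu, against 2032, 3774 and 2710.3 in sid2 with urea and 1939, 2502 and 2449.5 in Col-0 with urea. PSAE2 had signals of 21.6, 29.9 and 41.1 in sid2 with L-Glu and 27.1, 10.9 and 42.6 in Col-0 with L-Glu, against 472, 710.2 and 481 in sid2 with urea and 316, 254 and 517 in Col-0 with urea. PSAE1 was the higher copy in every library, but by a smaller margin with L-Glu. The ratio shifted by -1.94 (p = 0.005 by the exact test, adjusted p = 0.00583), at -1.67 in sid2 and -2.20 in Col-0, with no overlap between treatments in either genotype. Of the PSBO genes, the second copy fell more than the first. PSBO1 had signals of 225, 227 and 194 in sid2 with L-Glu and 214, 137 and 298 in Col-0 with L-Glu, against 5176, 7712 and 5752 in sid2 with urea and 5871, 5427 and 4232 in Col-0 with urea. PSBO2 had signals of 17.0, 37.0 and 32.8 in sid2 with L-Glu and 18.6, 15.6 and 44.6 in Col-0 with L-Glu, against 1855, 2743 and 2338 in sid2 with urea and 1868, 1465 and 1644 in Col-0 with urea. PSBO1 was the higher copy throughout, by a wider margin with L-Glu. The ratio shifted by 1.35 (p = 0.005 by the exact test, adjusted p = 0.00583), at 1.39 in sid2 and 1.31 in Col-0. The log2 fold change of PSBO2 was -6.20 (SE 0.297, adjusted p = 1.17e-12) in sid2, the largest fall of any member there, and -5.92 (SE 0.297, adjusted p = 2.2e-12) in Col-0. That of PSBO1 was -4.81 in sid2 and -4.61 in Col-0.

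Of the PSAD genes, PSAD1 had signals of 111, 144 and 157 in sid2 with L-Glu and 131, 66.3 and 134 in Col-0 with L-Glu, against 3272, 3264 and 3193 in sid2 with urea and 2378, 2703 and 2549 in Col-0 with urea. PSAD2 had signals of 189.7, 210.3 and 294 in sid2 with L-Glu and 230.5, 202 and 265 in Col-0 with L-Glu, against 2986, 3764 and 4012 in sid2 with urea and 1082, 3049 and 3301 in Col-0 with urea. PSAD2 was the higher copy in every L-Glu library, whereas with urea neither copy led throughout. The ratio shifted by -0.95 (p = 0.005 by the exact test, adjusted p = 0.00583), at -0.60 in sid2 and -1.302 in Col-0. Without urea library 1 of Col-0, in which PSAD2 was far below the other libraries, the shift was -0.71. Of the PSBQ genes, PSBQ1 had signals of 77.7, 158 and 172 in sid2 with L-Glu and 67.8, 79.5 and 83.9 in Col-0 with L-Glu, against 3409, 5279 and 4099 in sid2 with urea and 2331, 3130 and 2927 in Col-0 with urea. PSBQ2 had signals of 74.9, 105 and 101 in sid2 with L-Glu and 104, 79.5 and 101 in Col-0 with L-Glu, against 1648, 2244 and 2231 in sid2 with urea and 1798, 1549.6 and 2053 in Col-0 with urea. PSBQ1 was the higher copy in every urea library, while with L-Glu it was the higher copy in the sid2 libraries and equal to or below PSBQ2 in the Col-0 libraries. The ratio shifted by -0.76 (p = 0.005 by the exact test, adjusted p = 0.00583), at -0.60 in sid2 and -0.92 in Col-0.

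Of the plastocyanin genes, PETE1 had signals of 14.3, 22.1 and 22.7 in sid2 with L-Glu and 12.1, 16.6 and 39.9 in Col-0 with L-Glu, against 229.9, 338 and 196 in sid2 with urea and 223, 349.7 and 215 in Col-0 with urea. PETE2 had signals of 258, 290.1 and 357 in sid2 with L-Glu and 214, 119.8 and 205 in Col-0 with L-Glu, against 7926, 7291 and 8049.9 in sid2 with urea and 2959, 4689.6 and 6394 in Col-0 with urea. PETE2 was the higher copy in every library, and its lead was narrower with L-Glu in sid2, whereas in Col-0 the ratios of the treatments overlapped. The ratio shifted by 1.21 (p = 0.015 by the exact test, adjusted p = 0.015), at 1.22 in sid2 and 1.21 in Col-0. For the minor antenna protein CP29, LHCB4.1 had signals of 192, 260.3 and 202 in sid2 with L-Glu and 194, 137 and 178 in Col-0 with L-Glu, against 2107, 4059 and 2479.9 in sid2 with urea and 2821, 2099 and 2171 in Col-0 with urea. LHCB4.2 had signals of 42.7, 51.0 and 51.3 in sid2 with L-Glu and 41.1, 31.6 and 50.1 in Col-0 with L-Glu, against 977, 1568 and 1219 in sid2 with urea and 1449, 832 and 864 in Col-0 with urea. LHCB4.1 was the higher copy throughout, by a wider margin with L-Glu. The ratio shifted by 0.84 (p = 0.005 by the exact test, adjusted p = 0.00583), at 0.92 in sid2 and 0.76 in Col-0.

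**Figure D4:**
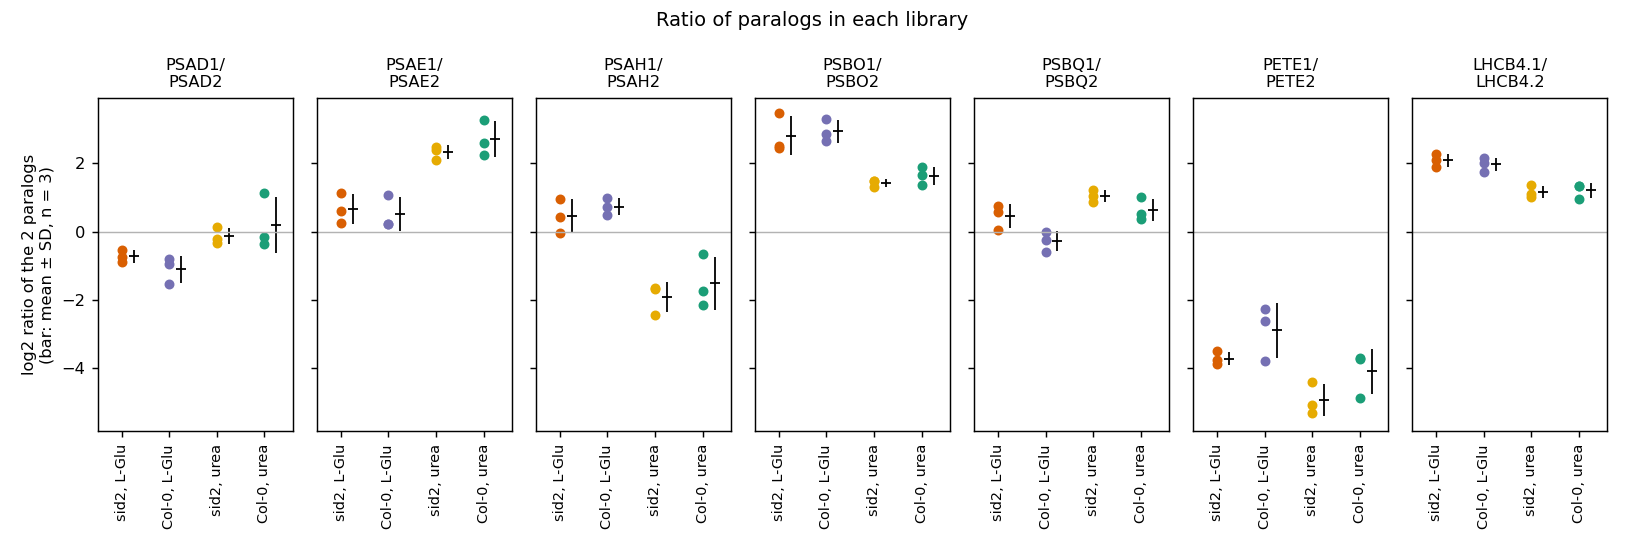
Log2 ratio of the signals of 2 paralogs (vertical axis) in each library for 7 pairs, 1 panel per pair, with the 4 groups along the horizontal axis. Points are libraries and the bar beside them is the mean ± SD (n = 3), and in PSAH1/PSAH2 the ratio is above 0 in 5 of the 6 L-Glu libraries and below 0 in the 6 urea libraries.

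The response to L-Glu was also compared between the genotypes, as the effect in sid2 minus that in Col-0. LHCB1.1 (AT1G29920), an LHCII trimer gene, was the 1 member of 46 that passed the test, where 1.95% of all genes did so. It had signals of 85.9, 79.8 and 60.5 in sid2 with L-Glu and 146, 144 and 106 in Col-0 with L-Glu, against 1445, 2757 and 1979.8 in sid2 with urea and 1493, 1147 and 1404 in Col-0 with urea. The sid2 L-Glu libraries were all below the Col-0 L-Glu libraries, whereas 2 of the 3 sid2 urea libraries were above all Col-0 urea libraries. The fall was -4.67 in sid2 and -3.32 in Col-0, a difference of -1.35 (SE 0.318, adjusted p = 0.0374). Over the 12 fits that left out 1 library the difference was between -1.58 and -1.12. The call was present without Col-0 L-Glu library 3, sid2 urea library 1, Col-0 urea library 1 or Col-0 urea library 3. It was lost without any of the other 8 libraries, with adjusted p-values of 0.0585 to 0.102 by limma, and after quantile normalization, where the difference was -1.16 with an adjusted p of 0.0755. At an unadjusted p under 0.05 there were 6 members, against 16.9% of all genes. The others were LHCB2.3 with a difference of -1.39, LHCB1.5 with -0.87, LHCB2.1 with 0.78, PETC with 0.94 and ATPD with 0.84. The median difference over all members was -0.10, against -0.04 over all genes.

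With L-Glu, several members were higher in sid2 than in Col-0. Of 46 members, 9 passed the test, where 13.3% of all genes did so, and of these 8 were higher in sid2, against 7.27% of all genes, and 1 was lower, against 6.04%. The median difference over the members was 0.37 on the log2 scale, and over all genes it was -0.03. For PETC, whose library values are given above, the difference was 1.302 (SE 0.21, adjusted p = 0.000866). ATPD differed by 1.33 (SE 0.224, adjusted p = 0.00108) and LHCB2.1 by 1.32 (SE 0.252, adjusted p = 0.00263). PSBS had signals of 119.9, 101 and 164 in sid2 with L-Glu and 45.3, 21.3 and 78.4 in Col-0 with L-Glu, against 3633, 4377 and 4330.5 in sid2 with urea and 1955, 2447 and 2859 in Col-0 with urea. The 3 sid2 L-Glu libraries of PSBS were above the 3 Col-0 L-Glu libraries, and the difference was 1.48 (SE 0.305, adjusted p = 0.0041). PSBR differed by 1.66 (SE 0.409, adjusted p = 0.0127) and PSBY by 1.34 (SE 0.292, adjusted p = 0.00615). PSAN differed by 1.00, LHCA3 by 0.74, and LHCB1.1, the member that was lower in sid2, by -0.78.

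Without overlap between the genotypes under L-Glu were 14 members that were higher in sid2, against 16.3% of all genes, and 1 that was lower, against 17.5%. The count of called members was 5 without Col-0 L-Glu library 2, the library in which most members were lowest, and the median was then 0.21. It was 6 without sid2 L-Glu library 2 and 6 without sid2 L-Glu library 3, and 12 without Col-0 urea library 1. Over the 12 omissions of a library, the genes of the whole table called in this comparison numbered 792 to 2649, against 1983 with all libraries. The counts of members were not set apart from this change in the table. The calls of ATPD, LHCB2.1, PETC, PSBS and PSBY were present in all 12 fits that left out 1 library. Without Col-0 L-Glu library 2 the calls of LHCA3, LHCB1.1, PSAN and PSBR were lost, without sid2 L-Glu library 2 those of LHCA3, LHCB1.1 and PSBR, and without sid2 L-Glu library 3 those of LHCA3, LHCB1.1 and PSAN. The call of LHCA3 was also lost without Col-0 L-Glu library 3, sid2 L-Glu library 1 or sid2 urea library 3, and that of LHCB1.1 without Col-0 L-Glu library 1.

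With urea, no member differed between sid2 and Col-0 at the adjusted threshold of limma, and 0.248% of all genes did. At an unadjusted p under 0.05 there were 15 members, against 6.33% of all genes. The estimate was above 0, that is higher in sid2, for 45 of 46 members, against 52.2% of all genes, and PETE1 was the exception at -0.05. The median difference was 0.46, against 0.01 over all genes. It was 0.27 without sid2 urea library 2, the library in which most members were highest, and 0.59 without sid2 urea library 1, in which most were lowest. Without overlap were 15 members that were higher in sid2, against 5.93% of all genes. The members share the same libraries, so such counts, here and under L-Glu, are not separate observations. Without Col-0 urea library 1, in which the shorter members were low, the median was 0.42. The largest difference was that of PSBR at 1.41 (SE 0.409, adjusted p = 0.303), and it was 0.82 without that library. LHCB2.3 followed at 0.85, PSAH2 at 0.82 and PETE2 at 0.80, and without that library these differences were 0.99 for LHCB2.3, 0.26 for PSAH2 and 0.50 for PETE2. Both comparisons of the genotypes draw on the same L-Glu or urea libraries as the comparisons of the treatments.

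**Figure D5:**
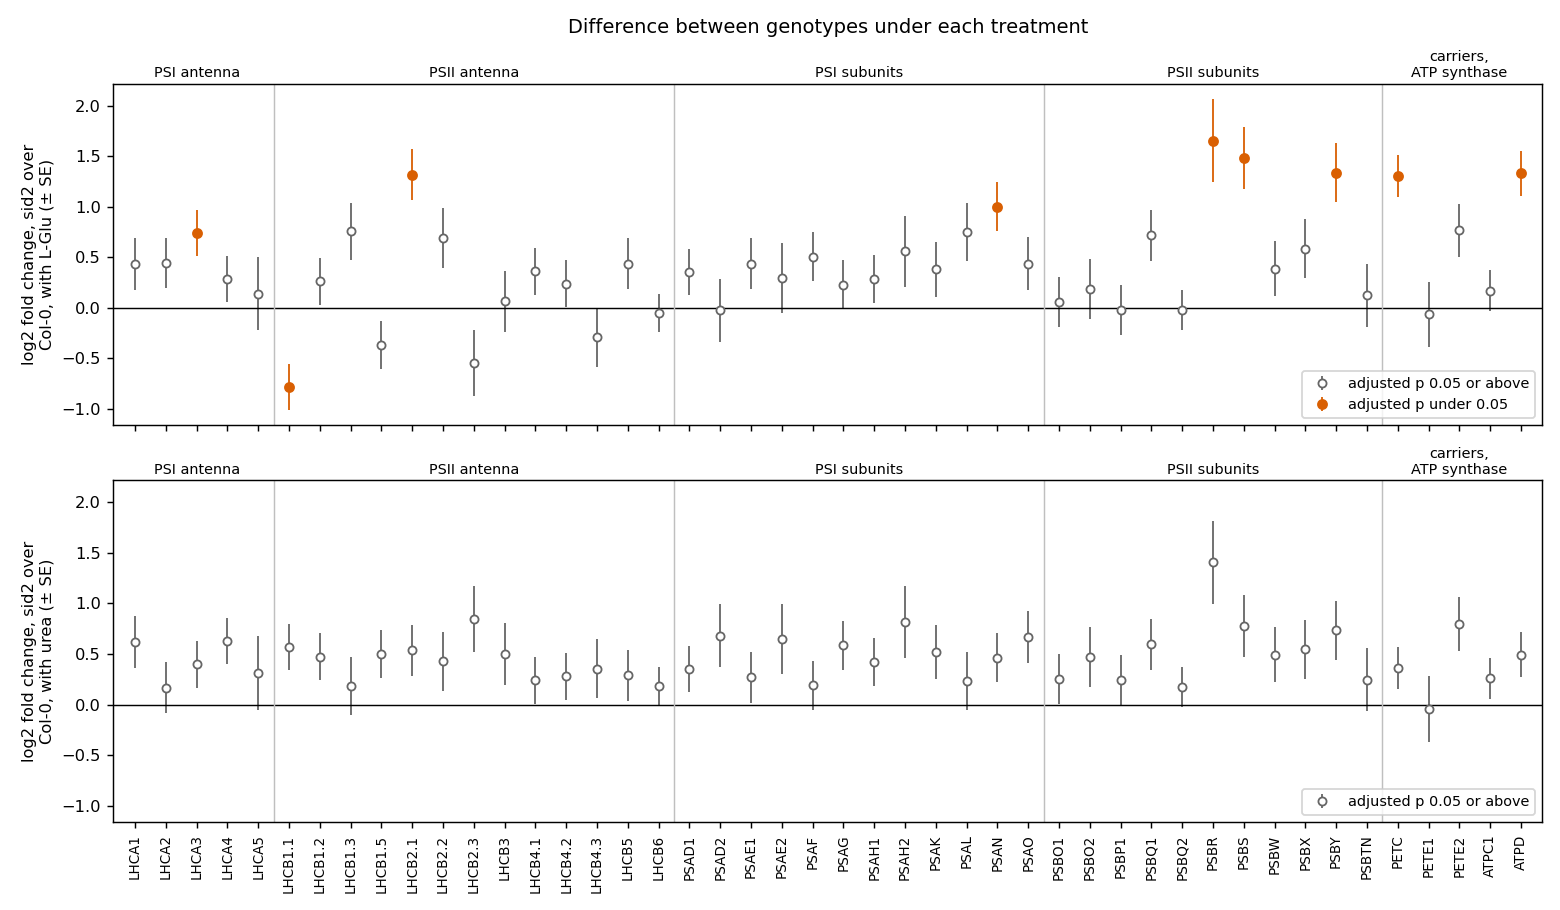
Log2 fold change of sid2 over Col-0 (vertical axes, ± SE of the fit) for the 46 members by class, with L-Glu in the upper panel and with urea in the lower one. Filled points passed an adjusted p of 0.05, which were 9 with L-Glu, 8 of them above 0, and 0 with urea.

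Other genes of the same pathway were taken from lists that are not part of the members. Over all genes, 32.4% were called lower in sid2 and 30.3% in Col-0. Of 10 further electron transport genes, 10 fell in sid2 and 9 in Col-0, with 1 not called there. Their median log2 fold change was -3.16 in sid2 and -4.06 in Col-0. The values ran from -6.08 to -0.66 in sid2 and from -5.81 to -0.38 in Col-0, so some of these genes changed little. FNR2, one of the ferredoxin-NADP reductases, fell, with log2 fold changes of -3.33 in sid2 and -4.94 in Col-0. Its effect differed between the genotypes by 1.61 (SE 0.281, adjusted p = 0.0123, limma). It was the 1 of these 10 genes called in that comparison, where 1.95% of all genes were. Whether the call holds without single libraries is not given here. FD2, the main leaf ferredoxin, fell, with log2 fold changes of -4.24 in sid2 and -4.77 in Col-0, and FNR1 with -5.66 in sid2 and -5.22 in Col-0. Of 12 genes for insertion, assembly and phosphorylation of the complexes 11 were measured. All 11 fell in sid2, and in Col-0 10 fell and 1 was not called, with medians of -3.05 in sid2 and -2.79 in Col-0. Their values ran from -4.96 to -0.92 in sid2 and from -4.63 to -0.45 in Col-0. ALB3, the thylakoid insertase of LHC proteins, fell, with log2 fold changes of -3.05 in sid2 and -2.79 in Col-0. Of the factors of photosystem II assembly, HCF136 had log2 fold changes of -4.96 in sid2 and -4.63 in Col-0 and PSB27 had -3.58 in sid2 and -3.74 in Col-0. Of 10 nuclear genes of the NDH complex, which cycles electrons around photosystem I, 1 was measured. This gene, PNSL1, fell, with log2 fold changes of -5.16 in sid2 and -3.99 in Col-0.

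Markers of root, leaf epidermis, guard and phloem cells had log2 fold changes between -2.55 and 1.07 in the 2 genotypes. Of all 14897 genes, 4761 were called higher and 4831 lower with L-Glu in sid2, and 4426 higher and 4520 lower in Col-0. Of 8 root markers 4 were measured, and with L-Glu 1 was higher and 1 lower in sid2, while 2 were higher and 0 lower in Col-0. Their summed level was 3354 to 4161 units in sid2 with L-Glu and 4429 to 9226 units in Col-0 with L-Glu, against 2681 to 3364 units in sid2 with urea and 2521 to 4048 units in Col-0 with urea. Nearly all of each sum was the signal of BGLU23, a beta-glucosidase gene of seedlings and roots. BGLU23 averaged 3577 ± 435 units in sid2 with L-Glu and 6170 ± 2576 in Col-0 with L-Glu, against 2758 ± 368 in sid2 with urea and 2872 ± 912 in Col-0 with urea (SD, n = 3 each). Its highest value, 9104, was that of Col-0 L-Glu library 2. BGLU23 had log2 fold changes of 0.38 in sid2 and 1.07 in Col-0, MYB36 had 0.59 in sid2 and 0.58 in Col-0, SCR had -0.99 in sid2 and -0.47 in Col-0 and CASP1, the fourth of these markers, had -0.81 in sid2 and 0.06 in Col-0. Of 8 markers of leaf epidermis and guard cells 6 were measured, 5 lower in sid2 and 4 in Col-0, with medians of -1.78 in sid2 and -1.57 in Col-0. Their summed level was 471 to 491 units in sid2 with L-Glu and 434 to 714 units in Col-0 with L-Glu, against 1736 to 1976 units in sid2 with urea and 1719 to 1910 units in Col-0 with urea. Among them ATML1 had log2 fold changes of -1.58 in sid2 and -2.31 in Col-0, FDH had -2.52 in sid2 and -2.22 in Col-0 and CUT1 had -2.55 in sid2 and -2.32 in Col-0, which are genes of the epidermis. Of the guard cell genes, MYB60 had -0.90 in sid2 and -0.92 in Col-0, KAT1 had -1.98 in sid2 and -0.46 in Col-0 and FAMA had -0.27 in sid2 and 0.28 in Col-0. FAMA was called in neither genotype and KAT1 was not called in Col-0. The phloem marker SUC2 had -1.59 in sid2 and -1.56 in Col-0. The part of the cell make-up in the fall of the members was not tested. Of 7 genes often used as controls, ACT2, ACT8 and GAPC2 were lower in both genotypes and 4 were not called, with a median of -0.28 in sid2 and -0.39 in Col-0. The share of all genes called lower was 32.4% in sid2 and 30.3% in Col-0.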

How the data were processed

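RNA was sequenced in 12 libraries, 3 for each of 4 groups named by the sample titles. The authors deposited 1 table of normalized signal per gene. Named in the submitters' processing notes, with no roles, are the TAIR10 genome, edgeR 3.22.3, HTSeq 0.6.0, TopHat and TopHat2 2.1.0. How values were normalized and whether strand was used is not given in the sources used here. Reads of near-identical genes may be split. The values are not whole numbers, so no count test was run. No gene has a 0 in any library, and a gene that the table lacks was not analysed here.

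Values were divided by 1 constant (3.492), 1 scaled unit was added and log2 was taken, which understates the fold changes of low genes. For all 14897 genes, limma 3.58.1 (R 4.3.3) fitted the 4 group means over 12 libraries with an intensity trend and 8 residual degrees of freedom. Its tests were two-sided, with Benjamini-Hochberg adjustment over all genes and a threshold of 0.05. The fit was tested on simulated data. Paralog ratios were compared with an exact permutation test. Means are given ± SD of the deposited signal. No label says that libraries came from separate cultures, so p-values reflect library spread, which may be technical. Exon lengths, coding sequences and promoter windows came from RefSeq TAIR10.1, which matched 14819 genes of the table.

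The members and gene lists were chosen with earlier results of these data known. Library values are given for the 2 largest and 2 smallest falls in each genotype, the 2 members of each class with the highest mean signal, the members called between genotypes (if over 8, the 4 smallest p), and both genes of each pair. Of each list, up to 3 genes with the smallest p in Col-0 are named, and SID2. CASP1, MYB60, KAT1 and FAMA were added after their values were seen. The alternatives were pseudocounts of 0.1 and 5, scaling to one total, quantile normalization, a minimum mean of 10 scaled units, fits to only the groups compared, a replicate block, and leaving out each library. The fit to only the groups compared with a replicate block was added after seeing the data.

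Same-numbered libraries deviated together (correlation over all genes above 0.1 for each number) between the sid2 treatments, at 0.116, 0.287 and 0.204, and between the genotypes under urea, at 0.126, 0.219 and 0.196. They did not between the Col-0 treatments (0.086, 0.027 and 0.062) or between the genotypes under L-Glu (0.142, -0.11 and 0.112). Over the members alone, the correlations were 0.0255, 0.314 and 0.244 between the sid2 treatments. Between the genotypes under urea they were -0.129, -0.139 and 0.443. The labels give no meaning to the library numbers.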

Additional observations from a re-analysis of the deposited data

Results flagged for a closer look

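The effect of L-Glu on LHCB1.1 differed between the genotypes by -1.35 on the log2 scale, sid2 minus Col-0 (SE 0.318, adjusted p = 0.0374, limma), since the fall was -4.67 in sid2 and -3.32 in Col-0. It was the 1 member of 46 called, where 1.95% of all genes were. The call was lost without any of 8 of the 12 libraries, with adjusted p-values of 0.0585 to 0.102 by limma, and with quantile normalization, at an adjusted p of 0.0755. Because its coding sequence is 95.6% identical to that of LHCB1.2 and 96.1% identical to that of LHCB1.3, the division of reads among these genes limits the value. The corresponding differences were -0.21 for LHCB1.2 and 0.57 for LHCB1.3, neither of which passed the threshold.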

How the results depend on the processing

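The fall of 46 of 46 members in each genotype was found under all alternatives run, and 1840 of 1840 single values kept their direction and their call. Scaling each library to one total moved the median of all genes to -0.52 in sid2 and -0.66 in Col-0 and that of the members to -5.08 and -5.19. The split of all called genes, 4761 higher and 4831 lower in sid2 and 4426 higher and 4520 lower in Col-0, became 3215 and 7094 in sid2 and 2753 and 7833 in Col-0. With quantile normalization the members' medians were -5.04 in sid2 and -5.16 in Col-0. The count of members whose effect differed between genotypes was 0 with quantile normalization, and 0 to 1 over the 12 omissions of a library. Without Col-0 L-Glu library 1 the call was LHCB2.3 instead of LHCB1.1. The cause was not tested. Members that differed under L-Glu numbered 5 to 12 over the omissions and 8 to 13 in the other fits, and under urea 0 in all. Genes of the table that differed under L-Glu numbered 1983, but 792 to 2649 over the omissions. The 7 paralog ratios passed in all omissions. Genes of the table called in the interaction numbered 291, but 453 with a pseudocount of 5, 153 with quantile normalization and 9 to 367 over the omissions. Between genotypes under urea they numbered 37, but 20 with a pseudocount of 5, 60 with one total, 5 with only the groups compared and 1 with a replicate block added.

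With a replicate block, 46 members were called in each genotype, 1 in the interaction, 11 between genotypes under L-Glu and 0 under urea. The block changed no member's call in the comparisons where same-numbered libraries deviated together over all genes. In those, all 46 members were called between the sid2 treatments and 0 between the genotypes under urea. The number of reads is unknown, so what depth limits cannot be stated.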
